A study of Mus musculus with 44 samples.

Results

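The 6 genes described here encode metabotropic glutamate receptors. They are Grm5 of receptor group I, Grm2 and Grm3 of group II, and Grm4, Grm7 and Grm8 of group III. They were chosen by name, as the rows of the deposited TRAP-seq count table whose Ensembl identifiers carry these symbols in the GENCODE annotation of GRCm38, and they are 6 of the 55335 genes listed there. All 6 passed the filter on low counts in each of the 7 comparisons below. Other genes of the receptor family were not analysed here.

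TRAP-seq sequences the mRNA that is pulled down with a tagged ribosomal protein. All 20 libraries came from hippocampi of male Emx1-NuTRAP mice, the offspring of Emx1-IRES-Cre and NuTRAP parents, so that the ribosome tag was present in ELE and sedentary mice alike, in cells in which Emx1 had driven Cre. These are mainly excitatory neurons, but Emx1 is also active in progenitor cells, and bulk libraries cannot tell fewer cells of a type from less RNA per cell. ELE (early-life exercise) mice could run on a wheel between postnatal days 21 and 41, sedentary mice could not, and tissue was taken on the following day. In simultaneous isolation (SIT), nuclei and ribosome-bound RNA were taken from both hippocampi of a mouse combined, with 4 ELE and 4 sedentary libraries. In separate isolation, RNA alone was taken from 1 hippocampus, with 3 ELE and 3 sedentary libraries for the left and for the right side.

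Each library held between 45895097 and 65767802 counts. The study left 1 ELE and 2 sedentary SIT libraries out of its exercise comparison after a principal component analysis of these data, and the SIT comparison below uses its 3 ELE and 2 sedentary libraries. For the sedentary pair its reporting form gave much ribosomal RNA, and RNA that is not mRNA, as the reason. Ribosomal RNA genes, with a few genes known to gather their reads, took 0.874% and 1.08% of the deposited counts in these and 0.109% to 1.56% in the other 18. The 2 sedentary libraries left out, of the mouse NT7.2.3 and of NT7.2.4, stood apart in cell type markers. The summed level of 6 interneuron markers was 817 and 854 CPM in them and between 40.5 and 108 CPM in the other 18 libraries, and that of 3 microglia markers was 99.7 and 104 CPM against 0.874 to 6.24 CPM. Mitochondrial genes took 8.64% and 9.64% of their counts and 0.0704% to 0.523% of those of the other 18. Levels are given as CPM, counts per 1000000 on a TMM scale that all 20 libraries share.

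Metabotropic glutamate receptors are G protein-coupled receptors that tune synaptic transmission over a slower time course than glutamate-gated channels. Group I receptors couple mainly to Gq and phospholipase C and sit largely around the postsynaptic density, where Homer and Shank proteins hold them. Group II and group III receptors couple to Gi/o and lower cyclic AMP, and many act on the presynaptic side to reduce transmitter release. In the hippocampus, group II receptors are known for long-term depression at mossy fiber synapses, and Grm3 is also prominent in astrocytes.

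The members lie on 5 chromosomes of GRCm38. Grm5 (ENSMUSG00000049583.15) spans chr7:87584168-88134907 on the plus strand with 10247 exonic bases. Grm2 (ENSMUSG00000023192.12) spans chr9:106643095-106656082 and Grm3 (ENSMUSG00000003974.6) spans chr5:9485541-9725170, both on the minus strand, with 4894 and 3049 exonic bases. Among the group III genes, Grm4 (ENSMUSG00000063239.17) spans chr17:27422387-27521403 on the minus strand with 5977 exonic bases. Grm7 (ENSMUSG00000056755.13) spans chr6:110645581-111567230 on the plus strand with 5886 exonic bases, and Grm8 (ENSMUSG00000024211.15) spans chr6:27275119-28135178 on the minus strand with 9898 exonic bases. The exons of Grm2 and Grm7 overlap antisense genes by 470 and 130 bases, and the authors' counting used the strand. An exon of Grm8 shares 96 bases with Mir592 on the same strand.

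The sequences before the start sites are shown for 3 members with differences below, Grm2 for the hemispheres and Grm3 and Grm7 for the isolation. RefSeq (GRCm38.p6) lists promoters for 4 of the 6 members, with 7 start sites. Grm5, which also differed between isolations, is not among the 4. Each window holds the 250 bases before the start, 5′ to 3′ on the strand of the gene. Capitals mark the GC box, GGGCGG on either strand, which 32.7% of 32851 windows of the same length hold. The windows lie at chr9:106656110-106656359 (minus strand), chr5:9725353-9725602 (minus strand) and chr6:110645262-110645511 (plus strand).
Grm2: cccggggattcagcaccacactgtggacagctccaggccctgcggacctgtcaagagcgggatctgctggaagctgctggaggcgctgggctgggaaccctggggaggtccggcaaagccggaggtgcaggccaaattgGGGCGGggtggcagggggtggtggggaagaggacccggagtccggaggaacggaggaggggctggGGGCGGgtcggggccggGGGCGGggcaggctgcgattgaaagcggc
Grm3: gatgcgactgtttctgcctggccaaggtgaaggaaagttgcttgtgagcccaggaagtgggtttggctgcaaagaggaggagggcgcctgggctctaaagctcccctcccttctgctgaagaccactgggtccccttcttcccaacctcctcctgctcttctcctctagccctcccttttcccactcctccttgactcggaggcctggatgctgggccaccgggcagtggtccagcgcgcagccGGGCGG
Grm7: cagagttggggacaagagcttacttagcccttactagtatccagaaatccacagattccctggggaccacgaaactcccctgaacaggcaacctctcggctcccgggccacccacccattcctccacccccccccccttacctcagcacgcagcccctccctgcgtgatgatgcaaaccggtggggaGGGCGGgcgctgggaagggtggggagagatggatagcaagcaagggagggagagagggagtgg

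The Grm2 window held 3 GC boxes and 71.2% G and C, while the windows of Grm3 and Grm7 held 1 box each and 62.4% and 62.0% G and C, beside a median of 52.4% over all windows. Over the 7 windows of the members, 5 held a GC box, although the pair of Grm7 windows overlap and share 1 box, and 3 held CCAAT on either strand, which 33.8% of all windows hold. The full cyclic AMP response element TGACGTCA was found in none of the 7 and in 1.55% of all windows, its core TGACG, which the full element contains, in 1 of the 7 and in 17.8% of all, and TATAAA in none of the 7 and in 12.4% of all. These are matches of letters only.

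Per kilobase of exon, the only scale on which levels of different genes are compared here, Grm2 and Grm5 were the most abundant members. Over the 12 separately isolated libraries the level was 23.2 ± 5.65 CPM per kb (SD, n = 12) for Grm2 and 18.8 ± 2.21 for Grm5. The ranges of these neighbours overlapped, and Grm2 was above Grm5 in 9 of 12 libraries and in 16 of all 20. Grm3 followed at 14.4 ± 1.67 CPM per kb, below Grm5 in each of the 20 libraries, although its range of 10.3 to 16.0 reached into that of Grm5, from 15.1 to 22.4. Grm7 came next at 8.90 ± 1.78 CPM per kb and was below Grm3 in 11 of the 12 separate libraries. Over all 20 libraries Grm7 exceeded Grm3 in 5. Grm4, at 3.19 ± 0.651 CPM per kb, was below Grm7 in each of the 20, and Grm8 was the scarcest at 0.360 ± 0.112 CPM per kb. Grm8 rested on 94 to 467 counts per library and Grm5 on 5617 to 13927, so the level of Grm8 was the least precise. These lengths are those of the merged annotated exons.

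**Figure D1:**
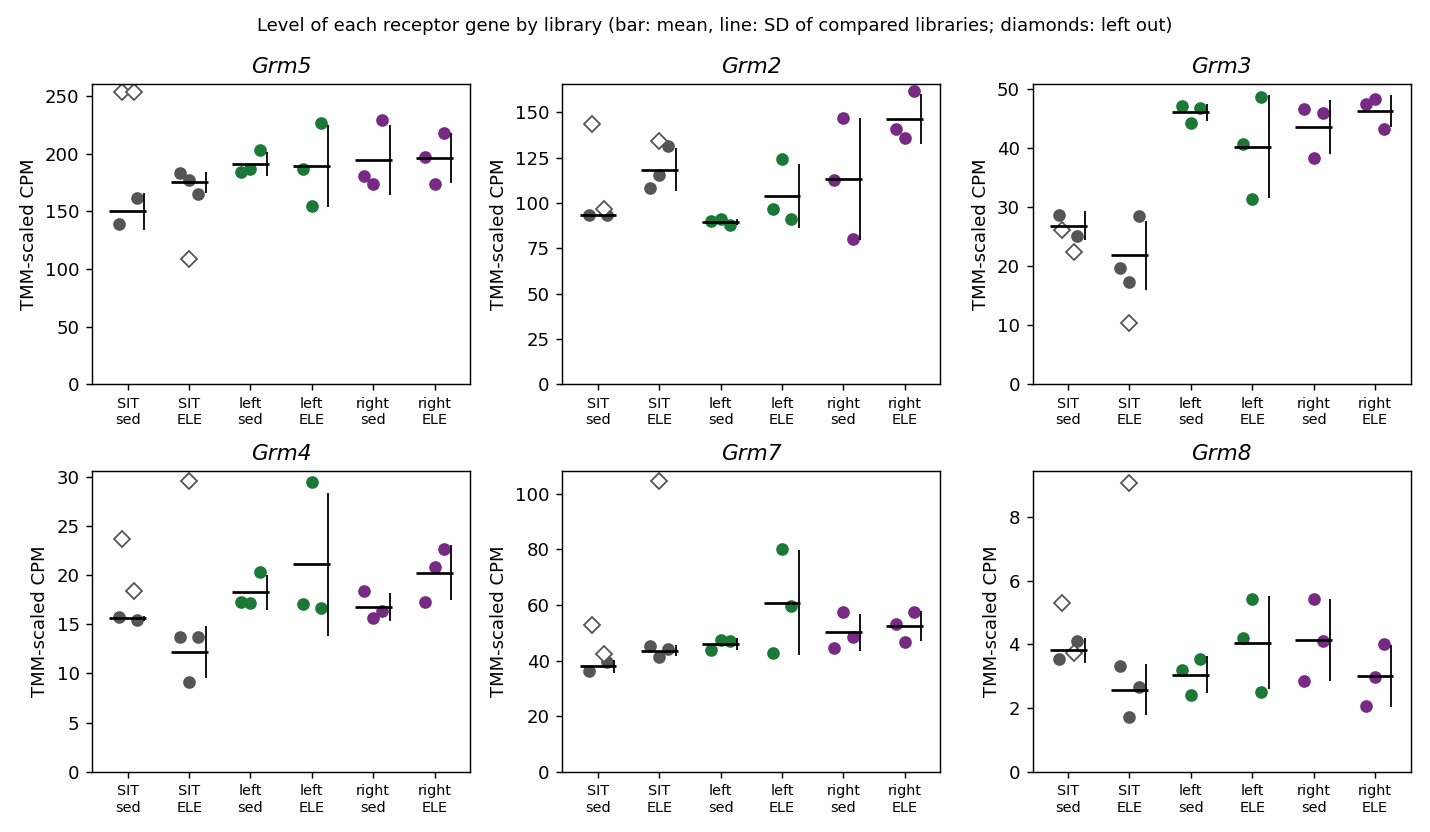
TMM-scaled CPM of the 6 receptor genes in each of the 20 libraries, by isolation, side and exercise group, with an axis from 0 in each panel. Bars are means and vertical lines SDs of the compared libraries, and open diamonds are the 3 SIT libraries that the study left out. Grm3 is at 28.6 CPM or lower in the 8 SIT libraries and at 31.3 CPM or higher in the 12 separate ones.

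The exercise comparisons ask which mRNAs differed on ribosomes after wheel running early in life. No receptor gene passed the threshold for a call, an unadjusted p under 0.05 with a fold of at least 1.3, in edgeR's quasi-likelihood test. This held for 0 of 6 members in SIT libraries, where 3.73% of 18238 genes tested were called, on the left (2.12%), on the right (2.00%) and over both hemispheres (2.06%). An unadjusted p under 0.05 was reached by Grm2 alone, in SIT and over both hemispheres. DESeq2 called 1 member, Grm7 on the left, and 0 in SIT, on the right and over both hemispheres, with 2, 1, 1 and 1 members at an unadjusted p under 0.05 in SIT, left, right and both. Of all genes, DESeq2 called 3.14% in SIT, 2.09% on the left, 1.89% on the right and 2.13% over both hemispheres. The comparison over both hemispheres uses the left and right libraries again. Below, passing the threshold always means this call by unadjusted p and fold, while the p-values printed from edgeR are adjusted over all genes. After Benjamini-Hochberg adjustment in edgeR, the adjusted p of the members was between 0.905 and 0.999 in SIT, on the left and over both hemispheres, and 0.9998 for each member on the right.

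Grm5, the group I receptor that drives phosphoinositide signaling and several forms of synaptic depression, was at 183, 177 and 165 CPM in the 3 SIT ELE libraries and at 139 and 161 CPM in the 2 sedentary ones. The SIT groups did not overlap, and the log2 fold change was 0.22 ± 0.10 (SE; edgeR adjusted p = 0.910). The exact permutation p was 0.10, the smallest that 3 against 2 libraries allow. Without NT6.305 the log2 fold change was 0.12 ± 0.15 and without NT6.306 it was 0.34 ± 0.15, neither past the threshold. On the left, the ELE libraries were at 186, 155 and 226 CPM and the sedentary ones at 184, 186 and 203 CPM. On the right, the values were 198, 174 and 218 CPM in ELE and 181, 173 and 229 CPM in sedentary libraries. Both pairs of groups overlapped widely, and the log2 fold changes were -0.02 ± 0.13 on the left and 0.02 ± 0.12 on the right. The direction in SIT rested on the choice of libraries. With all 8 SIT libraries the log2 fold change of Grm5 was -0.34 ± 0.22 (adjusted p = 0.652), since the 2 sedentary libraries with interneuron and microglia markers were the highest for Grm5, at 253 and 254 CPM, and the ELE library left out was the lowest, at 109 CPM. The same 2 sedentary libraries carry the high mitochondrial share given above, whose part in this was not tested.

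Grm2, a presynaptic receptor of group II, was the member with the same direction and the smallest p in SIT and over both hemispheres. Markers of other cells moved in the same comparisons. In SIT, 2 of 4 dentate granule markers, Prox1 and Dsp, were called higher in ELE, the median of the 4 was 0.40, and they summed to 586 to 751 CPM in ELE and to 513 and 601 CPM in sedentary libraries. Of 3 choroid plexus markers, 2 were called lower in ELE in SIT (sums of 123 to 560 CPM against 561 and 652 CPM) and 3 on the right (17.3 to 41.3 CPM against 33.1 to 1126 CPM, with a median log2 fold change of -2.95). Over both hemispheres 1 of the 3 was called lower. Of the other lists in SIT, 1 of 6 interneuron, 1 of 2 oligodendrocyte precursor and 1 of 4 striatal markers were called lower. On the right, 1 interneuron marker was called higher, 1 of 2 microglia and 1 of 2 endothelial markers lower, and of 4 CA2 and CA3 markers 1 higher and 1 lower. Over both hemispheres 1 striatal marker was called higher, and on the left no marker of any list was called. Their part in the receptor differences was not tested. In SIT, Grm2 stood at 108, 116 and 132 CPM in ELE and at 93.2 and 93.7 CPM in sedentary libraries, so that the groups did not overlap. The log2 fold change was 0.34 ± 0.11, a fold of 1.27 (edgeR adjusted p = 0.905), and the exact permutation p was 0.10. Without NT6.303 the log2 fold change was 0.40 ± 0.11 (adjusted p = 0.726), past the threshold. With the 3 left-out SIT libraries added, sedentary libraries ranged from 93.2 to 144 CPM and ELE libraries from 108 to 134 CPM. The groups then overlapped, as the sedentary library of NT7.2.3 was the highest. On the left, ELE libraries were at 96.9, 124 and 91.1 CPM and sedentary libraries at 90.0, 91.3 and 88.0 CPM. The lowest ELE library on the left was just below the highest sedentary one, and the log2 fold change was 0.21 ± 0.12 (adjusted p = 0.960), or 0.063 ± 0.071 without TG9.1.4. On the right, the ELE libraries were at 141, 136 and 162 CPM and the sedentary ones at 113, 147 and 80.1 CPM. Here the sedentary library of mouse TG9.1.1 was above 2 of the 3 ELE libraries, and the log2 fold change was 0.37 ± 0.18 (adjusted p = 0.9998). Without that library it was 0.60 ± 0.14 (adjusted p = 0.412), which passes the threshold, and without TG9.2.3 it was 0.17 ± 0.13 (adjusted p = 0.9995). Over both hemispheres the log2 fold change was 0.29 ± 0.12, a fold of 1.22 (edgeR adjusted p = 0.924). The exact permutation p, with labels exchanged within a hemisphere, was 0.065, where 0.005 is the smallest possible. The difference was thus in the same direction in SIT, on the left and on the right, and below the fold of 1.3 in each. Without the library of TG9.1.1 it was 0.38 ± 0.11 over both hemispheres (adjusted p = 0.577), past the threshold, and without TG9.2.3 it was 0.19 ± 0.09 (adjusted p = 0.967).

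Grm3, the other group II gene, did not keep a direction. SIT ELE libraries were at 19.7, 17.4 and 28.5 CPM and sedentary ones at 28.6 and 25.2 CPM. The ELE library of TG7.4.2 lay between the 2 sedentary libraries, the groups overlapped, and the log2 fold change was -0.30 ± 0.20 (adjusted p = 0.965). Without TG7.4.2 it was -0.53 ± 0.15 (adjusted p = 0.307), past the threshold, and without TG7.4.1 it was -0.16 ± 0.20 (adjusted p = 0.9998). On the left, Grm3 was at 40.6, 31.3 and 48.7 CPM in ELE and at 47.1, 44.3 and 46.7 CPM in sedentary libraries. On the right it was at 47.4, 48.3 and 43.3 CPM in ELE and at 46.6, 38.3 and 45.9 CPM in sedentary libraries. Groups overlapped on both sides, with log2 fold changes of -0.20 ± 0.15 (adjusted p = 0.960) and 0.09 ± 0.11 (adjusted p = 0.9998). The left value was -0.049 ± 0.097 without TG9.1.4 and -0.36 ± 0.13 without TG9.2.2 (adjusted p = 0.971 and 0.729), neither of which passes.

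Among the group III genes, Grm4, a presynaptic receptor best known from cerebellar and striatal synapses, stood at 13.7, 9.13 and 13.7 CPM in SIT ELE and at 15.8 and 15.4 CPM in SIT sedentary libraries. Its SIT groups did not overlap and the log2 fold change was -0.36 ± 0.21 (adjusted p = 0.947), or -0.19 ± 0.17 without TG7.4.1. On the left the ELE libraries were at 17.1, 29.5 and 16.7 CPM and the sedentary ones at 17.3, 17.2 and 20.3 CPM. A single ELE library, of mouse TG9.1.4, was above all others on the left, and the log2 fold change of 0.21 ± 0.22 (adjusted p = 0.960) became -0.12 ± 0.12 without it, while it was 0.33 ± 0.23 without TG7.3.2 and 0.35 ± 0.23 without TG9.2.2. On the right the ELE libraries were at 17.3, 20.8 and 22.7 CPM and the sedentary ones at 18.3, 15.6 and 16.3 CPM. These groups overlapped at 1 library each, and the log2 fold change was 0.28 ± 0.14 (adjusted p = 0.9998), or 0.18 ± 0.16 without TG9.2.1.

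Grm7, a low-affinity receptor of presynaptic active zones, was at 45.3, 41.5 and 44.1 CPM in SIT ELE and at 36.3 and 39.5 CPM in SIT sedentary libraries. The groups did not overlap, with a log2 fold change of 0.20 ± 0.12 (adjusted p = 0.951). On the left it was at 42.7, 80.2 and 59.6 CPM in ELE and at 43.7, 47.5 and 47.0 CPM in sedentary libraries. Of the left ELE libraries, TG9.1.4 and TG9.2.2 were above the sedentary range and TG7.3.2 was below it. The log2 fold change was 0.40 ± 0.20, a fold of 1.32 (edgeR adjusted p = 0.960), the exact permutation p was 0.40, and DESeq2, which called Grm7 here, gave an adjusted p of 0.999. Without TG9.1.4 the log2 fold change fell to 0.15 ± 0.13 and without TG7.3.2 it was 0.60 ± 0.13 (adjusted p = 0.643), past the threshold. On the right the ELE libraries were at 53.0, 46.6 and 57.5 CPM and the sedentary ones at 44.6, 57.5 and 48.4 CPM. The right groups overlapped and the log2 fold change was 0.06 ± 0.12 (adjusted p = 0.9998).

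Grm8, the scarcest member and likewise a presynaptic group III receptor, was at 3.32, 1.73 and 2.66 CPM in SIT ELE and at 3.54 and 4.09 CPM in SIT sedentary libraries, with a log2 fold change of -0.57 ± 0.34 (adjusted p = 0.951). The groups did not overlap, and without TG7.4.1 the value was -0.35 ± 0.32. On the left the values were 4.20, 5.43 and 2.52 CPM in ELE and 3.19, 2.42 and 3.54 CPM in sedentary libraries, and on the right they were 2.06, 2.98 and 4.003 CPM in ELE and 2.86, 5.43 and 4.11 CPM in sedentary libraries. Groups overlapped on both sides, and the log2 fold changes pointed in opposite directions, 0.41 ± 0.30 (adjusted p = 0.960) on the left and -0.45 ± 0.31 (adjusted p = 0.9998) on the right. Without TG9.2.2 the left value was 0.66 ± 0.25 (adjusted p = 0.729), past the threshold, and without TG9.1.4 or TG9.1.2 it was 0.14 ± 0.28 or 0.26 ± 0.35. The right value was -0.24 ± 0.31 without TG7.3.1, -0.22 ± 0.33 without TG9.1.1 and -0.72 ± 0.33 without TG9.2.1, none of which passes.

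In all, 5 of the 6 members had SIT groups that did not overlap, Grm3 being the exception, while 22.1% of all genes tested did not overlap in this comparison of 3 against 2 libraries. On the left and on the right, 0 of 6 members had groups that did not overlap, beside 10.8% and 7.69% of all genes. The 5 members in SIT did not share a direction, since Grm2, Grm5 and Grm7 were higher and Grm4 and Grm8 lower in ELE libraries. The 2 sedentary SIT libraries were both from mice numbered NT6, as was only 1 of the 3 ELE libraries. Fits within the NT6 mice and with a block by mouse number are given below as alternatives. The part of the mouse cohort in these differences was itself not tested.

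**Figure D2:**
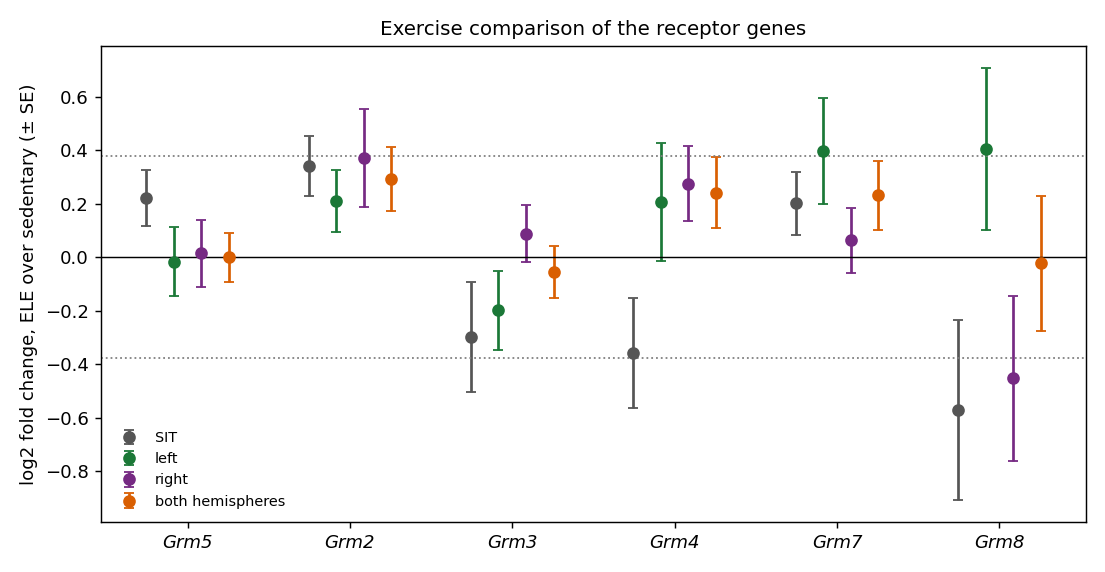
Log2 fold change of ELE over sedentary libraries for each receptor gene, with SE bars, in SIT libraries (3 against 2), on the left and right (3 against 3) and over both hemispheres (6 against 6). Dotted lines mark a fold of 1.3, and Grm2 is the member whose 4 estimates all lie above 0 together with their SE bars.

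The choice of SIT libraries changed which members passed the threshold. With all 8 SIT libraries 0 members were called, beside 7.84% of genes tested, and Grm8 was at 0.03 ± 0.45 (adjusted p = 0.991). Within the 4 NT6 mice, 2 ELE and 2 sedentary, 6.74% of genes were called, and 2 members among them. These were Grm7, higher in ELE at 0.99 ± 0.38 (adjusted p = 0.648), and Grm3, lower at -0.83 ± 0.32 (adjusted p = 0.648). The 2 ELE libraries here differed widely. NT6.304, which the study left out, held 105 CPM of Grm7 and 10.4 CPM of Grm3, and NT6.303 held 45.3 and 19.7 CPM. Grm2, at 0.38 ± 0.15 (adjusted p = 0.648), was just under the fold of 1.3. Grm4 and Grm8 were here higher in ELE libraries, at 0.47 ± 0.37 and 0.70 ± 0.50 (adjusted p = 0.721 and 0.697). With the 8 libraries less that of NT6.304, an alternative chosen after seeing the data, 7.05% of genes were called, among them Grm4 at -0.58 ± 0.21 (adjusted p = 0.548) and Grm8 at -0.69 ± 0.30 (adjusted p = 0.614).

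The ELE library that the study left out, NT6.304, was at an end of the SIT range for Grm3, Grm4, Grm5, Grm7 and Grm8. It held 105 CPM of Grm7 where the other 7 SIT libraries held 36.3 to 52.9 CPM. It was likewise the highest SIT library for Grm4, at 29.6 CPM against 9.13 to 23.7 CPM in the other 7, and for Grm8, at 9.07 CPM against 1.73 to 5.29 CPM. For Grm5 and Grm3 it was the lowest, at 109 and 10.4 CPM. Among the separate libraries, TG9.1.4 (left ELE) lay at the same ends, highest of 12 for Grm7 (80.2 CPM) and Grm4 (29.5 CPM), and lowest of 12 for Grm5 (155 CPM) and Grm3 (31.3 CPM). Its Grm8 level, 5.43 CPM, was as high as in TG9.1.1 (right sedentary). The ratio of Grm7 to Grm5 was 0.960 in NT6.304 and 0.518 in TG9.1.4, and between 0.168 and 0.332 in the other 18 libraries. Drd1, a dopamine receptor gene among 4 striatal markers, was also highest in these libraries, at 28.1 and 18.1 CPM against 2.87 to 11.2 CPM in the other 18, and the 4 markers together were highest in NT6.304 among the 20 libraries, at 125 CPM, and highest in TG9.1.4 among the 12 separate ones, at 72.1 CPM against 48.4 to 66.7 CPM in the other 11. The 5 astrocyte markers summed to 3802 CPM in NT6.304 and 5017 CPM in TG9.1.4, and to 1510 to 5071 CPM elsewhere. The 4 CA2 and CA3 markers together were highest of the 20 in these libraries, at 382 and 401 CPM against 275 to 367 CPM in the other 18. NT6.304 also came next after NT7.2.3 and NT7.2.4 in the summed interneuron and microglia markers, at 108 and 6.24 CPM. Calb1, expressed by dentate granule cells, was lowest in both, at 34.9 and 43.0 CPM, but the 4 dentate granule markers together were not, at 482 and 474 CPM against 412 to 751 CPM elsewhere. The part of tissue or cell composition in the receptor levels of these libraries was not tested.

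**Figure D3:**
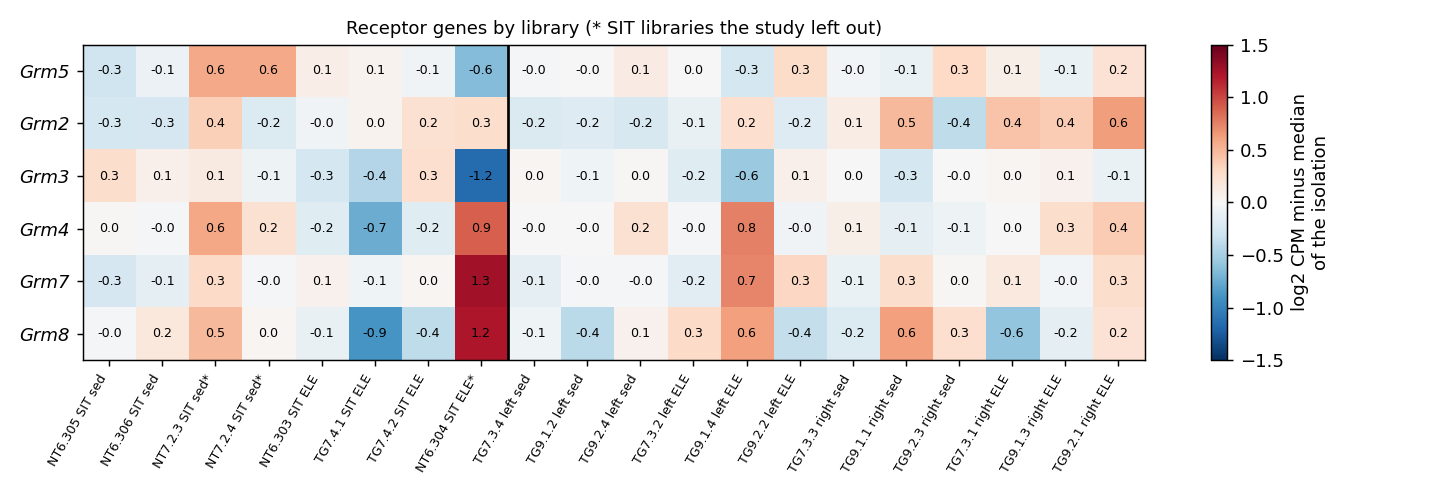
Log2 CPM of each receptor gene minus its median over the 8 SIT or the 12 separate libraries, with red above and blue below the median, and the value in each cell. NT6.304 and TG9.1.4 are high for Grm4, Grm7 and Grm8 and low for Grm5 and Grm3.

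**Figure D4:**
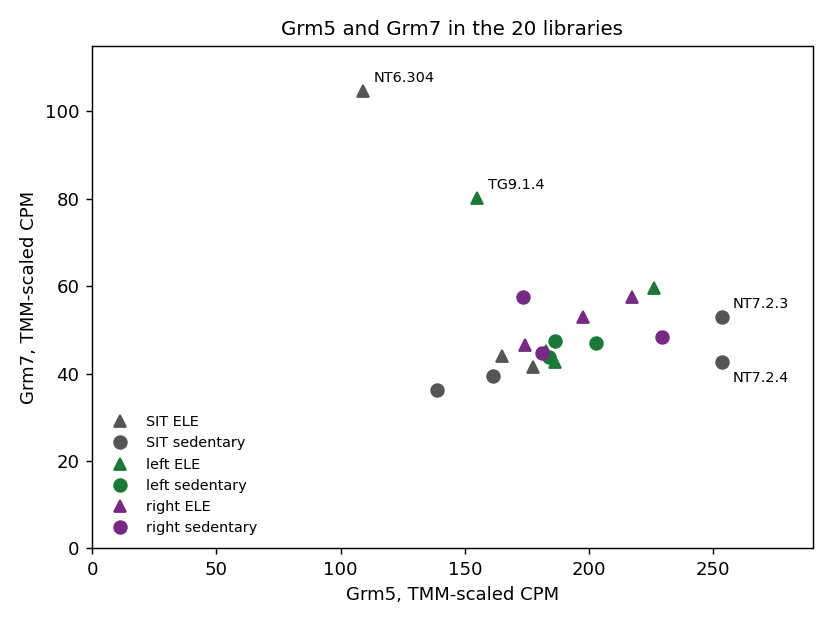
Grm7 against Grm5 in TMM-scaled CPM, 1 point for each of the 20 libraries, with triangles for ELE, circles for sedentary and colors for SIT, left and right. NT6.304 and TG9.1.4 lie at high Grm7 and low Grm5, and NT7.2.3 and NT7.2.4 at the highest Grm5.

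As a description over the 12 separate libraries, which share the tissue and the normalization, Pearson's r of log2 levels was 0.61 for Grm4 with Grm7 and -0.69 for Grm3 with Grm7. Without TG9.1.4 these were -0.03 and -0.13, so they rested on that library. The r of Grm3 with Grm8 was -0.77 with TG9.1.4 and -0.75 without it. Among 9569 genes of at least 10 CPM, those most like a member over the 12 libraries were March7 (r = 0.94) and Nceh1 (0.94) for Grm5, March4 (0.94) and Neurod2 (0.93) for Grm2, and Msrb2 (0.95) and Hdac9 (0.95) for Grm3. For the group III genes they were Pgap3 (0.92) and Gabpb1 (0.85) for Grm4, Rab3gap2 (0.98) and Spock3 (0.94) for Grm7, and Hs3st2 (0.93) and Cnot9 (0.91) for Grm8. Without the 2 libraries farthest from the median of the member, the r of Rab3gap2 with Grm7 was 0.96 and that of Gabpb1 with Grm4 was 0.48.

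Grm2 was the member that passed the threshold between the hemispheres. Over both exercise groups it was lower on the left, where the 6 libraries ranged from 88.0 to 124 CPM with a median of 91.2 CPM, than on the right, where they ranged from 80.1 to 162 CPM with a median of 138 CPM. The ranges overlapped, since the lowest of all 12 libraries, TG9.2.3, was a right one. The log2 fold change of left over right was -0.41 ± 0.12, a fold of 0.750 (edgeR adjusted p = 0.99996), and the exact permutation p, with sides exchanged within an exercise group, was 0.040. Grm2 was the 1 member called of 6, where 1.19% of 18810 genes were called, and DESeq2 called it as well, with 1.47% of genes called. After adjustment over all genes it did not pass, and without TG9.1.1, TG9.2.1 or TG9.2.2 it fell below the fold of 1.3, with values of -0.32, -0.37 and -0.37. The other 5 members had log2 fold changes between -0.07 (Grm3) and 0.09 (Grm4), each with an adjusted p of 0.99996. Of the 3 choroid plexus markers, 1 (Folr1) was called higher on the left, and their median log2 fold change was 2.00. TG9.2.3, lowest in Grm2, held 1126 CPM of them where the other 5 right libraries held 17.3 to 79.0 CPM, and their part in the Grm2 difference was not tested. The left and right libraries were from different mice.

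The interaction term asks whether the exercise difference itself differed between the hemispheres. No member passed the threshold (0 of 6, with 2.21% of 18810 genes called and 0 of 6 members at an unadjusted p under 0.05 in edgeR or in DESeq2, which called 2.08% of genes). Grm8 had the largest interaction, 0.86 ± 0.46 on the log2 scale (edgeR adjusted p = 0.99996), from a positive difference on the left and a negative one on the right. Its value was between 0.59 and 1.11 when 1 library was left out, and it passed the threshold without TG7.3.3, TG9.2.1 or TG9.2.2 (1.06, 1.11 and 1.11). For Grm7 the interaction was 0.33 ± 0.25 (adjusted p = 0.99996), or 0.54 without TG7.3.2 and 0.081 without TG9.1.4, for Grm3 it was -0.29 ± 0.19 (adjusted p = 0.99996), or -0.45 without TG9.2.2 and -0.14 without TG9.1.4, and for Grm2 it was -0.16 ± 0.25 (adjusted p = 0.99996), or 0.037 without TG9.2.3, -0.39 without TG9.1.1 and -0.31 without TG9.1.4. Of these, Grm7 without TG7.3.2 and Grm3 without TG9.2.2 passed the threshold.

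Between the isolations, Grm3 was the member that passed the threshold. In sedentary mice, Grm3 was at 28.6 and 25.2 CPM in the 2 SIT libraries and between 38.3 and 47.1 CPM, with a median of 46.3 CPM, in the 6 separate ones. The log2 fold change of SIT over separate isolation was -0.74 ± 0.10, a fold of 0.600 (edgeR adjusted p = 0.00115), and it lay between -0.83 and -0.65 without any 1 library. The exact permutation p was 0.0357, the smallest for 2 against 6. With all 4 sedentary SIT libraries the log2 fold change was -0.81 ± 0.09 (adjusted p = 0.000717). Outside this test, the 8 SIT libraries of both exercise groups, at 10.4 to 28.6 CPM, were all below the 12 separate libraries, at 31.3 to 48.7 CPM. Grm3 was the 1 member of 6 to show this, beside 2.59% of genes that did not overlap between these 8 and 12 libraries.

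Grm5 and Grm7 were also lower in SIT libraries. Grm5 was at 139 and 161 CPM against a range of 173 to 229 CPM, with a log2 fold change of -0.36 ± 0.11 (edgeR adjusted p = 0.0412), and Grm7 was at 36.3 and 39.5 CPM against 43.7 to 57.5 CPM, with -0.34 ± 0.11 (adjusted p = 0.0491). Both were below a fold of 1.3, and neither kept an adjusted p under 0.05 without NT6.305 (0.333 for Grm5 and 0.299 for Grm7) or without NT6.306 (0.0716 and 0.120). Without any 1 library the log2 fold change lay between -0.48 and -0.26 for Grm5 and between -0.41 and -0.29 for Grm7. By unadjusted p and fold, Grm5 was called without NT6.306 (-0.48), TG7.3.4 (-0.38) or TG9.1.1 (-0.39), and Grm7 without NT6.306 (-0.41). With these, 3 of 6 members were lower in SIT at an adjusted p under 0.05, while 8.13% of the 18911 genes tested were, and the same 3 had groups that did not overlap, beside 29.8% of all genes. Under the call by unadjusted p and fold, 1 of 6 members, Grm3, was called beside 15.9% of genes. Grm2 (-0.12 ± 0.18), Grm4 (-0.16 ± 0.12) and Grm8 (0.09 ± 0.27) did not pass, with adjusted p from 0.395 to 0.873. With all 4 sedentary SIT libraries, Grm7 was at -0.17 ± 0.11 (adjusted p = 0.380) and the log2 fold change of Grm5 was 0.07 ± 0.16 (adjusted p = 0.845), in the opposite direction, as the 2 added libraries held the highest Grm5 levels of all 20.

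Markers of other cell types moved with the isolation as well. Of 5 astrocyte markers, 3 (Aqp4, Slc1a3 and Aldh1l1) were lower in SIT at an adjusted p under 0.05, with log2 fold changes of -0.76, -0.49 and -0.51, and the median of the 5 was -0.51. By unadjusted p and fold, 4 of the 5 were called lower. Their summed level was 2015 and 2108 CPM in the 2 SIT libraries and between 2493 and 5071 CPM in the 6 separate ones. All 6 interneuron markers were above a fold of 1.3 higher in SIT, although their summed level was low, at 75.4 and 76.1 CPM against 40.5 to 62.6 CPM. Gad2, Slc32a1 and Pvalb among them passed an adjusted p of 0.05. The 4 excitatory neuron markers, which the Emx1 lineage should carry, were abundant in both but summed to 6011 and 6143 CPM in SIT and to 7694 to 9136 CPM in the separate libraries, and Camk2a among them was at -0.67 (adjusted p = 0.00763). Single genes of other lists moved too. Calb1, 1 of 4 dentate granule markers, was higher in SIT at 0.55 (adjusted p = 0.0389), and Grik4, 1 of 4 CA2 and CA3 markers, was lower at -0.29 (adjusted p = 0.0359). Of 3 microglia markers, 1 was called higher by unadjusted p and fold, Cx3cr1, at 0.98 (adjusted p = 0.122). By the same rule 1 of 4 striatal markers was called higher. Of 3 oligodendrocyte markers, 1 was higher in SIT at an adjusted p under 0.05. These 3 summed to 2625 and 2777 CPM in SIT and to 1752 to 2836 CPM in the separate libraries. Mitochondrial genes took 0.426% and 0.245% of the counts in the 2 SIT libraries and 0.0704% to 0.103% in the 6 separate ones. The part of these cell types and of RNA quality in the receptor differences was not tested, and the isolation cannot be told apart from the mice or from the use of both hippocampi in place of 1.

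**Figure D5:**
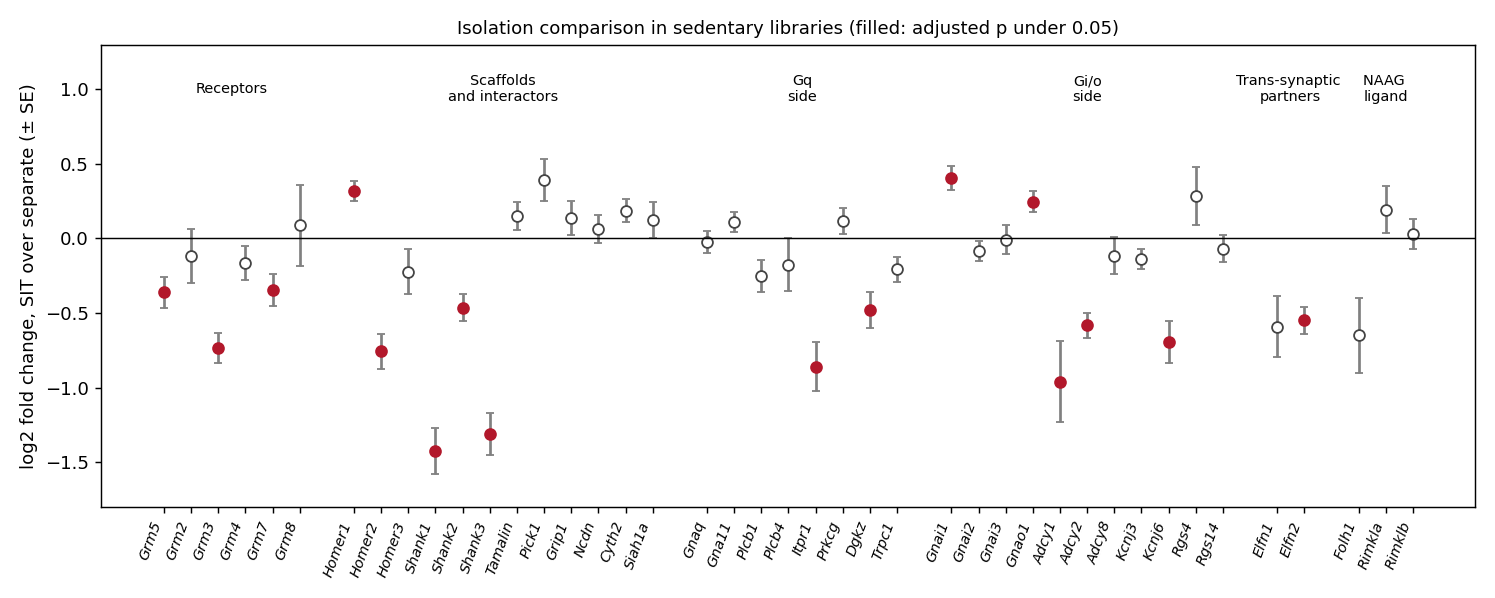
Log2 fold change of SIT over separate isolation in sedentary libraries (2 against 6), with SE bars, for the 6 receptor genes and the 36 genes of 5 pathway lists. Filled points have an adjusted p under 0.05. Grm3 is the lowest receptor, and Shank1 and Shank3 are the lowest of all genes shown.

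The genes around the receptors were followed through 36 genes in 5 lists, all of which were tested. In SIT, 1 of 36 was called by exercise, a share near the 3.73% of all genes. It was Rimkla, a synthetase of NAAG, the peptide transmitter that activates Grm3. It was at 6.08, 6.12 and 7.62 CPM in ELE and at 8.61 and 9.77 CPM in sedentary libraries, with a log2 fold change of -0.48 ± 0.21 (edgeR adjusted p = 0.906). The median log2 fold change of the 36 genes was 0.08, that of the 6 receptors -0.05 and that of all genes 0.00. On the left 0 of 36 were called in edgeR, with a median of 0.02 beside 0.21 for the 6 receptors and 0.00 for all genes. On the right 1 of 36 was called, beside 2.00% of all genes. It was Dgkz, a diacylglycerol kinase on the Gq side. It was at 1259, 1194 and 1396 CPM in ELE and at 1011, 1103 and 816 CPM in sedentary libraries, with a log2 fold change of 0.40 ± 0.12 (edgeR adjusted p = 0.9998). The median on the right was 0.05 for the list and 0.08 for the receptors. Over both hemispheres 0 of 36 were called. Elfn1, which binds group III receptors across the synapse, had the 1 call of 36 in the interaction, beside 2.21% of all genes, at 0.64 ± 0.24 (edgeR adjusted p = 0.99996). It was at 13.1, 15.5 and 12.6 CPM in left ELE and at 8.66, 11.01 and 11.96 CPM in left sedentary libraries, and at 10.7, 11.2 and 15.6 CPM in right ELE and at 15.03, 13.9 and 16.1 CPM in right sedentary libraries.

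Between the isolations, 14 of the 36 genes were called, 12 of them lower and 2 higher in SIT, beside 15.9% of all 18911 genes, of which 1922 were lower and 1094 higher, with a median of -0.10 for the list, -0.25 for the 6 receptors and -0.01 for all genes. The 12 scaffolds and interactors went both ways, with a median of 0.09, 4 called lower (Shank1, Shank2, Shank3 and Homer2) and 1 higher, Pick1, at 0.39 ± 0.14 (adjusted p = 0.0813). Homer1, a scaffold of the group I receptor, was higher in SIT at 0.32 ± 0.07 (adjusted p = 0.00928), below a fold of 1.3. Shank3 was at 144 and 133 CPM in SIT and from 292 to 413 CPM in the separate libraries, with a log2 fold change of -1.31 ± 0.14 (edgeR adjusted p = 0.000291). Shank1 was at -1.42 ± 0.15 and Homer2 at -0.76 ± 0.11, with adjusted p of 0.000301 and 0.00193. On the Gi/o side 3 of 11 genes were called lower, among them the adenylyl cyclase Adcy2 at -0.58 ± 0.08 (adjusted p = 0.00142). Gnai1 on that side was called higher, at 0.40 ± 0.08 (adjusted p = 0.00626), and Gnao1 was higher below a fold of 1.3, at 0.25 ± 0.07 (adjusted p = 0.0361). Elfn2, a trans-synaptic partner of group III receptors, was at -0.55 ± 0.09 (adjusted p = 0.00302). The IP3 receptor gene Itpr1, on the Gq side, was at -0.86 ± 0.16 (adjusted p = 0.00546). With all 4 sedentary SIT libraries 13 of the 36 were called, 8 lower and 5 higher, beside 16.4% of all genes. The use of that alternative for the list was chosen after seeing the data, and the median of the list was then -0.04. Shank3, Shank1, Adcy2 and Itpr1 were then at -0.94 ± 0.19, -0.78 ± 0.24, -0.53 ± 0.08 and -0.69 ± 0.14 (adjusted p = 0.00762, 0.0530, 0.00169 and 0.00944) and were still called by unadjusted p and fold. Homer2, at -0.33 ± 0.17, Shank2, at -0.15 ± 0.14, and Elfn2, at -0.34 ± 0.11 (adjusted p = 0.236, 0.551 and 0.0552), were not called. Elfn1, called lower at -0.59 ± 0.21 with the 2 libraries (adjusted p = 0.0783), turned to 0.86 ± 0.41 (adjusted p = 0.194) and was not called either, as the 2 added libraries held 41.6 and 34.4 CPM where the first 2 held 8.67 and 8.29 CPM. Plcb4, Rimkla and Rimklb were called higher in this alternative alone, at 0.88, 0.49 and 0.38 (adjusted p = 0.0968, 0.0740 and 0.104), and Plcb4 had been at -0.17 ± 0.18.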

How the data were processed

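The deposited counts are read pairs over the exons of each gene. Per the labels and the study's methods, the authors aligned reads to GRCm38.p6 with STAR 2.7.3a, removed duplicates with Picard 1.87 without molecular identifiers, counted with GenomicAlignments using the strand, and tested with DESeq2 1.32.0. PCR copies and true repeats in short or abundant mRNAs are thus removed alike. Columns were placed in groups by the mouse numbers in the study's sample table, and the SIT libraries it compared by its listed mean counts, which 1 choice of libraries matched for 633 of 633 genes. The 24 columns of the wild-type table were not used here.

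Counts were tested with edgeR 4.0.16 (quasi-likelihood, TMM, filterByExpr) in R 4.3.3 on all genes, with Benjamini-Hochberg adjustment over all genes tested, after a check on simulated data. DESeq2 1.42.0, other library choices, scalings and filters, a replicate block and leaving out each library were alternatives. CPM are the deposited counts per 1000000 on TMM library sizes. Permutation tests were exact, two-sided and on log2(CPM + 0.5). Each library is 1 mouse, so p-values measure the spread between mice. Mice were housed in pairs, with 1 wheel to an ELE cage, and litters were divided between ELE and sedentary groups. Cage and litter were not in the main fits, so mice that shared them may not be independent. All members are named, with 2 genes most like each by Pearson's r, the pathway genes called by exercise or interaction, and the 6 of smallest p between isolations. The members and lists were chosen with earlier results of these data known.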

Additional observations from a re-analysis of the deposited data

Results flagged for a closer look

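A library stood apart from the other 3 of its group in 2 cases, by the gap to its nearest neighbour relative to the range of the group. Grm2 was at 144 CPM in the sedentary SIT library of NT7.2.3 and between 93.2 and 97.0 CPM in the other 3. Grm7 was at 105 CPM in the SIT ELE library of NT6.304 and between 41.5 and 45.3 CPM in the other 3. Both libraries are among those that the study left out of its SIT comparison. Chance gives such a gap in about 1 of 20 groups, and only the SIT groups, with 4 libraries each, were large enough to be examined.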

How the results depend on the processing

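Leaving out 1 library changed the number of genes called (unadjusted p under 0.05 and a fold of at least 1.3) to between 357 and 1122 in SIT (681 with all compared libraries), 225 and 975 on the left (376), 311 and 657 on the right (351), 337 and 647 over both hemispheres (387), 223 and 499 between hemispheres (223) and 357 and 727 for the interaction (416). With all 8 SIT libraries, the NT6 mice alone and the 8 without NT6.304 the SIT count was 1375, 1196 and 1281. DESeq2 called 566 on the left, 622 over both hemispheres and 430 between hemispheres, and with no filter on low counts the counts were 703, 972 and 669, with 719 on the right and 1047 for the interaction. Of the other SIT choices, in that order, the log2 fold change of Grm5 turned to -0.34, -0.038 and -0.20, that of Grm8 to 0.028 with all 8 and 0.70 in NT6 mice, and that of Grm4 to 0.47 in NT6 mice. Grm5 over both hemispheres was 0.0013 with DESeq2 and 0.0011 with median-of-ratios scaling. Between isolations, all 4 sedentary SIT libraries turned Grm5 to 0.066, Grm2 to 0.076 and Grm4 to 0.066, and the right hippocampus alone turned Grm8 to -0.12. Without 1 library, signs changed within these ranges of log2 fold change. For Grm2 they were -0.18 to 0.018 between isolations and -0.39 to 0.037 for the interaction. For Grm3 they were -0.11 to 0.027 over both hemispheres, -0.0033 to 0.14 on the right and -0.12 to 0.021 between hemispheres. For Grm4 they were -0.12 to 0.35 on the left, -0.39 to 0.072 for the interaction and -0.048 to 0.16 between hemispheres. For Grm5 they were -0.065 to 0.057 over both hemispheres, -0.16 to 0.11 on the left, -0.071 to 0.15 on the right, -0.18 to 0.090 for the interaction and -0.11 to 0.018 between hemispheres. For Grm7 they were -0.014 to 0.17 on the right and -0.082 to 0.12 between hemispheres, and for Grm8 they were -0.19 to 0.13 over both hemispheres, -0.026 to 0.24 between isolations and -0.17 to 0.15 between hemispheres. The cause was not tested. In the fit with a replicate block by the first part of the mouse number, Grm2 was 0.21 in SIT, 0.30 over both hemispheres and -0.41 between hemispheres. Grm8 turned to 0.022 between hemispheres. In SIT this fit set 1 ELE library, NT6.303, against the sedentary ones, since the other ELE libraries formed a block of their own. Counts of called genes with the block were 327, 308, 453, 239 and 419 on the left, on the right, over both hemispheres, between hemispheres and for the interaction. Of the same-numbered pairs of libraries of different groups, 3 of 6 within a hemisphere had an r over 0.1 (from -0.09 to 0.21), as did 7 of all 18 (from -0.10 to 0.56, the highest TG9.1.4 with TG9.1.1). Differently numbered pairs ranged from -0.38 to 0.30, and a smaller share of them had an r over 0.1. With so few pairs this check cannot decide whether the numbers mark related mice, and the main fits did not pair them. Grm8 rested on the fewest counts of the members.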
